A study of Mus musculus with 8 samples.

Results

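The promoters described here were chosen by how many of their CpGs the deposited tables list. Each window ran from 1000 bases before to 500 bases after the transcription start site (TSS) of a protein-coding gene on the 19 autosomes (GENCODE vM1, mouse build mm9), overlapping windows were merged, and windows with 3 to 10 listed CpGs were kept. There were 2902 such promoters of 26513, belonging to 2911 genes and holding 17800 of the 757812 listed CpGs. The 8 tables list the same CpGs, each with at least 5 reads in every library. Of the other promoters, 13999 had 0 to 2 listed CpGs, 4919 had 11 to 30 and 4693 had more than 30. The working name for this group was CpG-poor promoters, but the number of listed CpGs is set by where the reads fell as well as by the DNA, so the group is called sparse promoters below. All members were counted, and 2519 had at least 3 CpGs covered by 10 or more reads in all 4 oxBS libraries, which left 383 members without a tested 5mC level.

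The cells were neural precursor cells (NPCs) obtained by retinoic acid differentiation of A2lox.cre mouse embryonic stem (ES) cells, a male line derived from E14. All of them carried a doxycycline-inducible shRNA cassette and all received doxycycline at 2 µg/ml for 5 days. The control cells expressed a scrambled, non-targeting shRNA (shScr) and the knockdown cells an shRNA against Tet3 (shTet3), with 2 replicates each. DNA was cut with MspI, and each of the 4 DNA samples gave a bisulfite library (BS, which reads 5mC plus 5hmC) and an oxidative bisulfite library (oxBS, which reads 5mC alone), making 8 libraries. The lines came from selected ES cell clones and a single shRNA represents the knockdown, so the effects of the clone, the shRNA and Tet3 cannot be told apart. Neither Tet3 RNA nor cell type marker expression was measured in these libraries, so the knockdown and the NPC label could not be checked from them.

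Libraries held 42516767 to 61865967 calls, and the median coverage of a CpG in the sparse promoters was 38 to 45 reads. Between 2.37% and 10.2% of these CpGs were under 10 reads in a library. The shScr replicates stood apart from each other: 1609 of the 2304 sparse promoters measured in all 8 libraries (69.8%) had a lower oxBS level in shScr replicate 1 than in replicate 2, against 1117 (48.5%) for the same comparison of the shTet3 replicates. Values without each shScr replicate are therefore given with the main difference.

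DNA methylation at CpGs is placed by the DNMT enzymes, and TET enzymes, of which Tet3 is one, oxidise 5mC to 5hmC and further products as a step towards its removal. Most mammalian promoters lie in CpG islands, which usually stay unmethylated. Promoters with few CpGs often drive tissue-restricted genes, such as those of skin, muscle, immune cells and the germline, and are often methylated in cells that do not use them.

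Short stretches of 7 sparse promoters show what these measurements rest on: the first 3 in order of how far shTet3 lay below shScr, the first 2 above, the highly methylated one with the smallest difference, and 1 with a TATA box. Each is the mm9 reference sequence, 5′ to 3′ on the gene's strand, and capitals mark the listed CpGs (in Acta1 also the TATAAA). The Adam6a stretch is chr12:114781336-114781388 (+ strand), the Adam32 stretch chr8:25994935-25995096 (− strand), the Gm17567 stretch chr10:33715422-33715533 (− strand) and the Tbcel stretch chr9:42270010-42270207 (− strand). The Efemp1 stretch is chr11:28753328-28753432 (+ strand, 6 of its 10 listed CpGs), the Tmprss12 stretch chr15:100111127-100111255 (+ strand, 4 of 8 listed CpGs) and the Acta1 stretch chr8:126418665-126418820 (− strand, all 7 listed CpGs).
Adam6a: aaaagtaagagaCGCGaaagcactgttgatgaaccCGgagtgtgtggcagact
Adam32: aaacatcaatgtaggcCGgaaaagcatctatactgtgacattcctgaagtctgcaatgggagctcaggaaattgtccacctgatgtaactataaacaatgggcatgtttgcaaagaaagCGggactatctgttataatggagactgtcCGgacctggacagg
Gm17567: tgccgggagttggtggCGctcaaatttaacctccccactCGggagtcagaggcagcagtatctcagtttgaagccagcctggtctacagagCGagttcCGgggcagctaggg
Tbcel: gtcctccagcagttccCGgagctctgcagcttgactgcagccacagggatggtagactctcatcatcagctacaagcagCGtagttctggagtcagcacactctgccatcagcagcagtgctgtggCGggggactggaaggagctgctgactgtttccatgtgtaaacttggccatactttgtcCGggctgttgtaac
Efemp1: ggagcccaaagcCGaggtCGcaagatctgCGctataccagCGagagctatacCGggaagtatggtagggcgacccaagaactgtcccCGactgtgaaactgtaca
Tmprss12: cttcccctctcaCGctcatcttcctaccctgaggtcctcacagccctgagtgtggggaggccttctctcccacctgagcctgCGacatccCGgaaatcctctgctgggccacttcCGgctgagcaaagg
Acta1: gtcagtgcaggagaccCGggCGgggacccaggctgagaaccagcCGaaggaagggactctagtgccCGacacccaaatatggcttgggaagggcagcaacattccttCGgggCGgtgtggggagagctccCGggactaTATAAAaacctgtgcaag

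The sequence of the sparse promoters went only partly with the name CpG-poor. A promoter was put in the CpG-rich class where any stretch of 500 bases reached both 55% GC and 0.6 of the CpG number expected from its base composition, in the low class where no stretch reached 0.4 of that number, and otherwise in the intermediate class. By this measure 1378 members (47.5%) held a CpG-rich stretch, 1078 (37.1%) were intermediate and 446 (15.4%) were low. The median number of CpGs in an unmerged window of 1501 bases was 56.5, 32 and 22, and the median ratio of observed to expected CpGs was 0.547, 0.331 and 0.215, in the 3 classes. Of the promoters with 11 to 30 listed CpGs, 93.7% held a CpG-rich stretch, against 8.07% of those with 0 to 2. Only 12.9% of the CpGs in the sparse promoters were listed, compared with 26.0% in promoters with 11 to 30 and 43.5% in those with more than 30.

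Sequence motifs were counted on both strands in the 1742 members that were a single unmerged window. The MspI site CCGG was found in 99.7% of them, against 74.8% of all 17388 such windows. TATAAA lay within 50 bases before the TSS in 49 members (2.81%), compared with 3.27% of all windows, and anywhere in the window in 44.1% against 56.9%. The E-box CACGTG was found in 24.2% against 20.2%, and the cyclic AMP response element TGACGTCA in 2.87% against 2.27%. The MspI site, which the assay needs, did not set sparse promoters apart from promoters with more listed CpGs. Among unmerged windows it was found in 99.6% of the class next above in listed CpGs and in 100% of the highest class. In the class with fewer listed CpGs it was found in 61.2%. The other motifs differed from all windows by smaller shares than the MspI site did.

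The sparse promoters held more 5mC than the promoters with more listed CpGs, and less in shTet3 than in shScr. Their mean oxBS level was 32.4% and 38.4% in the shScr libraries and 26.8% and 27.1% in the shTet3 libraries. Both shTet3 libraries lay below both shScr libraries, and the 2 shScr libraries differed from each other by more than the 2 shTet3 libraries did. The mean was 35.4% ± 4.22 in shScr and 26.9% ± 0.233 in shTet3 (SD, n = 2), a difference of -8.46 percentage points, with p = 0.333 in an exact two-sided permutation test, the smallest that 2 against 2 libraries allow. Without shScr replicate 2 the difference was -5.47 points and without shScr replicate 1 it was -11.4 points, so the size rests on which control library is used. In bulk DNA, fewer cells with a methylated promoter and fewer methylated copies in every cell cannot be told apart.

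Of the 2519 tested members, 1970 (78.2%) had a lower mean in shTet3, with a median difference of -6.29 points and quartiles of -15.4 and -0.132. The median over all 12050 promoters tested was -0.133 points. Both shTet3 libraries lay below both shScr libraries at 1084 members (43.0%), against 28.2% of all promoters tested, and above both at 83 members (3.29%), against 7.04%. The difference exceeded 10 points at 997 members that were lower and at 5 that were higher, against 1351 and 6 of all 12050 promoters tested. These 5, named after their values were seen, were Efemp1, Tbcel, Rreb1, Pcdh1 and Gm1070.

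No member passed limma at an adjusted p below 0.05, where 0% of all promoters passed and the smallest adjusted p was 0.785. At an unadjusted p below 0.05, limma had 333 members lower and 31 higher, against 4.95% and 0.988% of all promoters. With any 1 shScr replicate left out lower members still outnumbered higher ones, and with any 1 shTet3 replicate left out the reverse held. Such a fit leaves 1 library in a group and takes its spread from the other group alone. Which libraries the counts rest on is therefore not shown. A logistic regression of the summed calls, which measures counting error and not the spread between replicates, called 920 members lower and 3 higher at q below 0.01 and over 10 points, against backgrounds of 10.6% and 0.0581% of all promoters. The 3 called higher were Tbcel, Efemp1 and Phf17, also named after their values were seen.

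The CpG content of the DNA ordered the sparse promoters. Members with a CpG-rich stretch (1190 tested) had mean oxBS levels of 11.7% and 14.1% in shScr against 9.66% and 9.95% in shTet3. Intermediate members (948) had 47.3% and 55.3% in shScr against 38.6% and 39.5% in shTet3. Low members (381) had 59.9% and 72.2% in shScr against 50.8% and 49.8% in shTet3. In all 3 classes both shTet3 libraries lay below both shScr libraries, by -3.09, -12.3 and -15.7 points on average (exact permutation p = 0.333 for each). The contrast between low and CpG-rich members was 48.1 and 58.1 points in shScr against 41.2 and 39.9 points in shTet3, a change of -12.6 points (exact permutation p = 0.333). Both shTet3 libraries lay below both shScr libraries at 20.9% of CpG-rich, 58.6% of intermediate and 73.2% of low members.

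**Figure D1:**
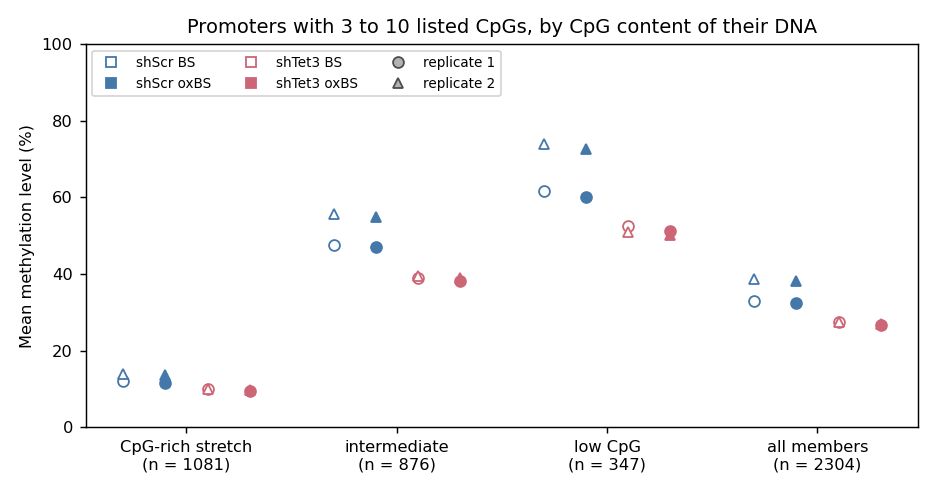
Mean methylation level (%) of the sparse promoters measured in all 8 libraries, by the CpG content of their DNA; each point is 1 library, filled for oxBS and open for BS, blue for shScr and red for shTet3, circles for replicate 1 and triangles for replicate 2. In the low class (n = 347) the oxBS libraries sit at 60.1% and 72.7% in shScr and at 51.3% and 50.2% in shTet3, and in the CpG-rich class (n = 1081) they sit between 9.54% and 13.8%.

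In proportion to the starting level the pooled means of the classes did not differ in this way. The shTet3 mean was 76.0% of the shScr mean in CpG-rich, 76.1% in intermediate and 76.2% in low members, and 77.7% in promoters with more than 10 listed CpGs. In points, sparse promoters exceeded those with more than 10 listed CpGs by 27.5 and 32.7 in shScr and by 22.7 and 22.9 in shTet3, a change of -7.27 points (exact permutation p = 0.333). As a ratio, their mean was 6.59 and 6.70 times that of the other promoters in shScr and 6.60 and 6.42 times in shTet3, a change of -0.03 on the log2 scale (exact permutation p = 0.667). The change of the sparse promoters was thus larger in points, and a difference in proportion was not detected in these pooled means. The ratios of the shTet3 libraries lay on both sides of that of shScr replicate 1. Pooled means mix promoters of unlike level, and shares within groups of like level are given below. Among promoters with 11 to 30 listed CpGs, 290 intermediate ones had 39.8% and 45.01% in shScr against 32.8% and 33.2% in shTet3. The 4528 CpG-rich ones had 5.54% and 6.44% in shScr against 4.51% and 4.72% in shTet3, so both classes were at lower levels than among the sparse promoters.

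At the edges of the rule the levels ran on without a step. Promoters with 2 listed CpGs, just outside, had mean oxBS levels of 49.9% and 61.5% in shScr against 41.6% and 41.7% in shTet3 (387 with at least 1 covered CpG). Members with 3 listed CpGs had 46.6% and 55.3% in shScr against 37.6% and 38.3% in shTet3 (432, counted in the same way). Members with 10 had 16.5% and 18.2%, then 12.9% and 13.7% (268), and promoters with 11, just outside, had 13.9% and 16.1%, then 11.4% and 11.5% (277). The share with a CpG-rich stretch went from 19.4% at 2 listed CpGs to 23.3% at 3, 75.3% at 10 and 82.1% at 11.

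The spread of levels among the members was wide, and the highest part of it was thinner in shTet3. Of the 2304 members measured in all 8 libraries, 17.1% and 29.9% had an oxBS level of 70% or more in the shScr libraries, against 5.77% and 7.51% in the shTet3 libraries. Members below 20% made up 46.9% and 44.4% in shScr against 50.3% and 50.7% in shTet3. In the low class (347 promoters), 37.8% and 67.4% reached 70% in shScr, against 11.5% and 14.7% in shTet3.

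Members were also grouped by their mean BS level in shScr, which comes from other libraries than the oxBS levels compared but from the same DNA. The 1027 members below 20% had oxBS levels of 2.80% and 4.21% in shScr against 2.47% and 2.63% in shTet3. The 735 members at 20% to 70% had 43.1% and 52.0% in shScr against 34.9% and 33.9% in shTet3. The 542 members at 70% or more had 74.0% and 84.6% in shScr against 61.8% and 64.2% in shTet3. Both shTet3 libraries lay below both shScr libraries at 14.9%, 58.0% and 79.7% of these members. Among promoters with more than 10 listed CpGs, the 144 at 70% or more had 73.9% and 83.8% in shScr against 63.4% and 65.5% in shTet3, and 78.5% of them had both shTet3 libraries below both shScr libraries. The change of highly methylated sparse promoters relative to these was -1.93 points (exact permutation p = 0.333). The 615 at 20% to 70% started lower than the sparse promoters of that group, with 34.0% and 37.3% in shScr against 26.7% and 27.96% in shTet3. The sparse promoters of that group had 1.27 and 1.39 times their level in shScr against 1.31 and 1.21 times in shTet3, and the ratios overlapped between the shRNAs.

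**Figure D2:**
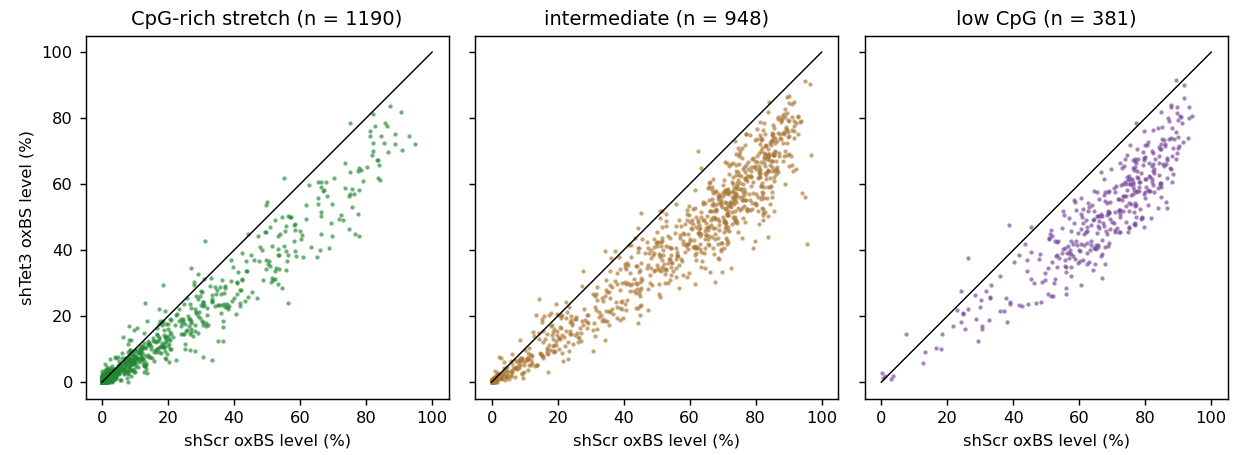
Mean oxBS level in shTet3 (%, vertical) against that in shScr (%, horizontal) for each of the 2519 tested sparse promoters, in a panel for each class of CpG content, with the line of equal level. Most points with a shScr level above 20% lie below the line, and the CpG-rich panel is crowded near 0.

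Single CpGs were then tested with the thresholds of the study, a q below 0.01 and a difference over 10 percentage points, in a logistic regression without a term for the spread between replicates. Of 15066 CpGs tested in the sparse promoters, 2139 (14.2%) were hypomethylated positions (hypo-DMPs), against 13.9% of all CpGs tested, and 14 (0.0929%) were hypermethylated (hyper-DMPs), against 0.0814%. The sparse promoters as a whole therefore had about the share of hypo-DMPs of all CpGs, while promoters with more than 10 listed CpGs had 3758 of 293855 (1.28%). The share was 4.36% in CpG-rich, 23.4% in intermediate and 29.9% in low members. The median difference at the hypo-DMPs was -24.1 points. When the spread between replicates was added as an overdispersion term with an F test, 0 hypo-DMPs and 0 hyper-DMPs were left at q below 0.01, with 271 CpGs of the sparse promoters lower (1.8%) and 0 higher at an unadjusted p below 0.05 and over 10 points, against 1.95% and 0.00196% of all CpGs tested. Without shScr replicate 2 there were 1001 hypo-DMPs and 91 hyper-DMPs.

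Hypo-DMPs lay in 978 members, of which 314 held 3 or more and 54 had every listed CpG called. Hyper-DMPs lay in 13 members, and Pcdh1, which encodes a protocadherin, was the one with 2 of them (named after its values were seen). These counts of members have no share over all promoters beside them and are a description only. Per CpG, the shares were near those of all CpGs, as given above. Within a promoter, the median SD between the shScr levels of its CpGs was 6.83 points.

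Position around the TSS was looked at in bins of 250 bases. Over all sparse promoters the mean level was highest between positions -1000 and -750 from the TSS, with 49.3% and 58.4% in shScr against 42.2% and 41.4% in shTet3. It was lowest between positions -250 and 0, with 23.5% and 27.9% in shScr against 19.4% and 19.4% in shTet3. CpG-rich members went from 30.8% and 34.5% in the farthest bin to 7.18% and 9.17% next to the TSS in shScr. Intermediate members went from 53.1% and 64.5% to 38.4% and 44.6% between the same bins in shScr. In low members the same bins had 62.7% and 72.7%, then 57.0% and 68.0%, in shScr, and 51.4% and 50.1%, then 47.0% and 46.5%, in shTet3. In every bin of every class the shTet3 mean was below the shScr mean (exact permutation p = 0.333 in each).

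**Figure D3:**
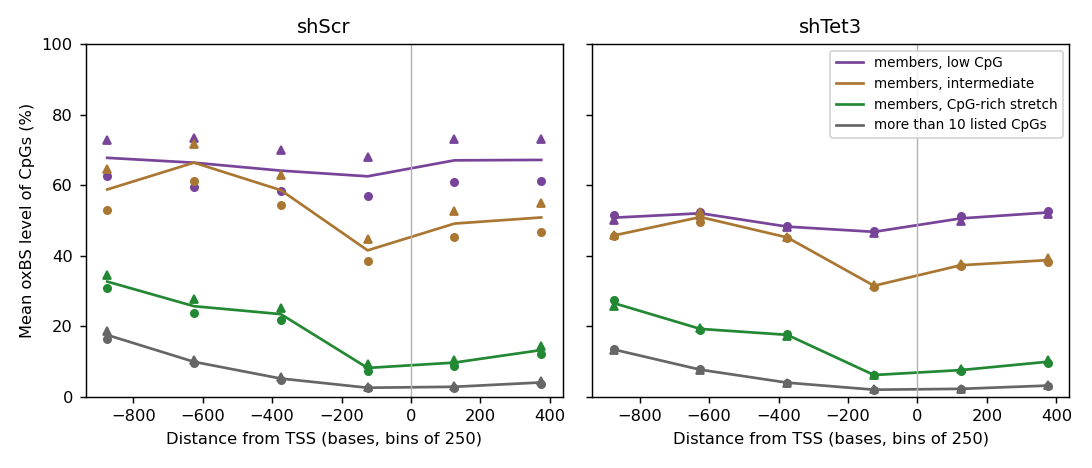
Mean oxBS level of CpGs (%) against distance from the TSS in bins of 250 bases, for the 3 classes of sparse promoters and for promoters with more than 10 listed CpGs; lines are means of 2 replicates and symbols the single libraries, with shScr in the left panel and shTet3 in the right. The low class stays between 46.5% and 73.3% across the window in both panels. All 3 classes have their lowest mean in the bin just before the TSS, and the low class falls least from the farthest bin to it.

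By annotation, 4315 listed CpGs of the sparse promoters (24.2%) lay in coding exons, 4704 (26.4%) in UTRs, 4938 (27.7%) in introns and 3843 (21.6%) outside transcripts. Coding exons had the highest levels, 44.0% and 52.1% in shScr against 37.1% and 37.9% in shTet3. UTRs had the lowest, 20.01% and 22.6% in shScr against 15.9% and 16.0% in shTet3. Introns had 28.1% and 33.2%, then 23.4% and 23.4%, and CpGs outside transcripts had 24.8% and 30.2%, then 20.2% and 20.5%.

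The BS libraries of the same DNA gave nearly the same picture. The mean BS level of 2481 tested members was 32.7% and 38.4% in shScr against 27.0% and 27.1% in shTet3, a difference of -8.52 points (exact permutation p = 0.333). Both shTet3 libraries lay below both shScr libraries at 1114 members (44.9%), against 29.8% of all promoters tested. With limma 0 members passed at an adjusted p below 0.05, as did 0% of all promoters. At an unadjusted p below 0.05, 343 members were lower and 20 higher, against 5.53% and 1.11% of all promoters. Leaving out a replicate moved these counts in the same directions as in oxBS. The logistic regression called 923 lower and 4 higher, against 10.5% and 0.0582%. Since BS and oxBS libraries share their DNA, they check the library and not the culture.

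Promoters that were lower and those that were higher in oxBS differed in how the BS libraries placed them. In all 8 libraries, 998 members had both shTet3 oxBS libraries below both shScr libraries. Of these, 963 (96.5%) were lower in BS too, where 79.8% of all 2304 members were. Both shTet3 BS libraries were below both shScr BS libraries at 706 of them (70.7%), against 44.9% of all members. Of the 76 with both above in oxBS, 32 (42.1%) were higher in BS too, where 15.6% of all members were. At 9 of the 76 (11.8%) both shTet3 BS libraries were above both shScr BS libraries, against 59 of all 2304 members (2.56%). Both sets thus went with BS more often than all members did.

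The difference between BS and oxBS, which would hold 5hmC, was small. Over 2304 members it averaged 0.734 and 0.548 points in the shScr DNA samples and 0.606 and 0.356 points in the shTet3 samples, or 0.641 ± 0.131 and 0.481 ± 0.177 points (SD, n = 2; exact permutation p = 0.667). The order of the 2 group means turned where CpGs with 5 or more reads were used, to 0.506 points in shScr and 0.562 in shTet3. In low members it was 1.49 and 1.08 points in shScr against 1.25 and 0.683 points in shTet3. It was above 0 in all 4 DNA samples at 172 members (7.47%), against 7.53% of all promoters, and below 0 in all 4, which 5hmC cannot give, at 78 (3.39%), against 3.73%. These shares were near those of all promoters. With limma 0 members and 0% of all promoters passed at an adjusted p below 0.05 (smallest adjusted p 0.868). At an unadjusted p below 0.05, 133 members were above and 48 below, against 3.17% and 1.3% of all promoters. For a difference between shRNAs 0 passed, with 157 at an unadjusted p below 0.05, against 3.89% of all promoters.

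The single promoters named next were picked by how far the oxBS level differed, so their oxBS values are a description and none passed limma (adjusted p of 0.785 or more). The BS libraries were not used in the choice. The widest difference was at Adam6a (chr12:114781119-114782619), which encodes a testis ADAM-family membrane protein needed for sperm function. Its oxBS level was 92.9% and 98.5% in shScr against 30% and 53.9% in shTet3, a difference of -53.7 points with an SE of 10.1. All 3 of its listed CpGs, shown in capitals in its sequence above and lying at positions -771 to -748 from the TSS outside transcripts, were hypo-DMPs. The BS libraries read 69.6% and 90.9% in shScr against 67.9% and 47.7% in shTet3, a smaller difference of -22.5 points, and the coverage of its CpGs was 10 to 67 reads.

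Adam32 (chr8:25994567-25996067), another testis ADAM gene, had oxBS levels of 78.8% and 88.7% in shScr against 37.9% and 50.02% in shTet3. Its BS levels were 60.7% and 85.6%, then 39.3% and 44.9%, so both kinds of library had both shTet3 values below both shScr values. Its 3 listed CpGs, in coding sequence of annotated transcripts, were all hypo-DMPs. Gm17567 (chr10:33714360-33715860), a predicted gene, had 96.7% and 93.2% in shScr against 34.2% and 77.8% in shTet3, and its shTet3 libraries were farther apart than its shScr libraries. Il15 (chr8:84926621-84928121), the cytokine that sustains natural killer and memory T cells, had oxBS levels of 65.6% and 79.3%, then 25.9% and 43.4%. Its BS levels of 49.3% and 75.6%, then 50.4% and 57.4%, overlapped between the groups. Tnfsf4 (chr1:163324581-163326081), the OX40 ligand of T cell co-stimulation, had oxBS levels of 61.8% and 77.5%, then 43.3% and 23.7%, and a BS difference of -31.4 points against -36.1 in oxBS. Ano2, a chloride channel of olfactory neurons, the predicted gene Gm5215 and Myo5b, a vesicle transport myosin, completed the 8 with differences of -37.3, -37.1 and -36.7 points. In BS the 8 differed by -8.56 to -31.4 points.

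The promoters with the highest shTet3 level relative to shScr differed by less. Tbcel (chr9:42269044-42270544), a relative of tubulin-folding cofactor E, had oxBS levels of 18.8% and 34.0% in shScr against 36.1% and 39.4% in shTet3, a difference of 11.3 points with an SE of 7.17. One of its 4 intronic CpGs, at position -536 from the TSS, was a hyper-DMP, and its BS levels of 22.4% and 44.5%, then 32.2% and 56.5%, overlapped between the groups. Efemp1 (chr11:28752204-28753710), the extracellular matrix protein fibulin-3, had 10.1% and 16.0% in shScr against 23.5% and 24.2% in shTet3 in oxBS. Its BS levels of 26.3% and 21.9%, then 13.9% and 24.0%, gave a difference of the opposite sign, -5.13 points. Cox6b2, a testis form of a respiratory chain subunit, had 0.980% and 3.24%, then 7.04% and 8.14%, in oxBS and 1.90% and 3.96%, then 6.56% and 12.8%, in BS, so that both kinds of library had both shTet3 values above both shScr values. Sfmbt2, a Polycomb-group protein, differed by 6.73 points in oxBS and 3.05 in BS. Akap7, Alpk3, S1pr1 and Hspa12b were higher in oxBS by 3.95 to 7.60 points and lower in BS, with Alpk3 at 5.93 and -25.9 points.

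Some highly methylated members had nearly the same oxBS level in both groups. They were looked for among the 363 with 70% or more in both shScr oxBS libraries, a choice that uses the same values as the difference, so the counts are a description. At 314 both shTet3 libraries lay below both shScr libraries, 19 differed by less than 5 points downwards or were higher, and 1, Tgfbr1, was higher. Tmprss12 (chr15:100110257-100111768), a testis serine protease, had the smallest difference, with oxBS levels of 81.0% and 83.2% in shScr against 87.8% and 74.8% in shTet3. Dnm2, the endocytosis protein dynamin 2, had 83.4% and 100%, then 91.7% and 88.4%. Pik3cd, a leukocyte phosphoinositide 3-kinase subunit, had 79.7% and 74.7%, then 74.4% and 76.2%, and the predicted gene Gm10719 had 75.9% and 78.0%, then 73.1% and 77.1%. The Gm10719 window held 0 MspI sites, and coverage of its CpGs ran from 5 to 225 reads. At these 4 the groups overlapped in oxBS, and their BS differences were -1.77 to -9.31 points. In BS both shTet3 libraries lay below both shScr libraries at Tmprss12 and Dnm2, while the groups overlapped at Pik3cd and Gm10719.

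**Figure D4:**
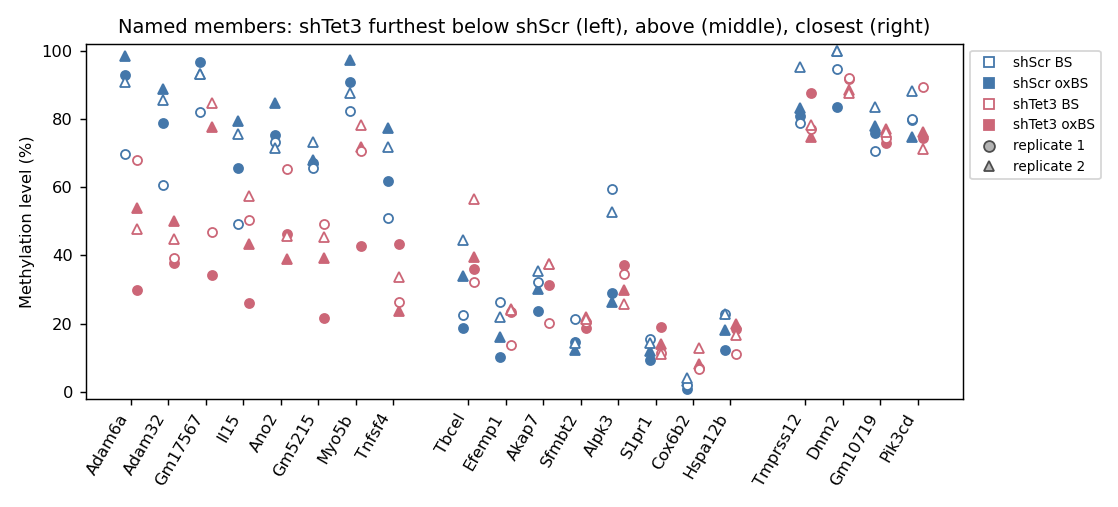
Methylation level (%) in every library at the 8 sparse promoters where shTet3 lay furthest below shScr in oxBS (left), the 8 furthest above (middle) and the 4 closest among highly methylated ones (right); points are filled for oxBS and open for BS, circles for replicate 1 and triangles for replicate 2. Adam6a spans 30% to 98.5% in oxBS, and all 8 on the left have red filled points below the blue filled ones, as the choice requires.

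The members with the largest BS minus oxBS difference in shScr that stayed above 0 in all 4 DNA samples were Wwp2, Prr15, Tulp1 and Pttg1. Pttg1, which encodes securin, had BS levels of 25.1% and 17.3% in shScr against 38.9% and 32.9% in shTet3. Its oxBS levels were 5.71% and 7.14%, then 24.97% and 2.60%. Its oxBS value in shTet3 replicate 1 stood apart from the other 3. Wwp2, a ubiquitin ligase, had 45.1% and 65.8%, then 37.9% and 35.3%, in BS and 28.8% and 47.4%, then 35.2% and 31.0%, in oxBS. None of the 4 passed limma (smallest adjusted p 0.868 over all promoters).

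Gene lists were described by their counts and medians of the oxBS difference, beside a median of -0.133 points and a share of 28.2% with both shTet3 libraries below both shScr libraries over all promoters, and of -6.29 points and 43.0% over the sparse promoters. No member of any list passed limma at an adjusted p below 0.05. Each list was also set beside the sparse promoters of like shScr BS level, as the median over the list of a member's difference minus the median difference of its level group. By this measure the epidermal list was at 0.80 points, chemosensory receptors at 2.78, liver and plasma proteins at 0.36, muscle at 0.78, germline at -0.50, neuronal at -0.82 and immune genes at -3.99. Apart from the immune list, these lists were thus near, or differed less than, other sparse promoters of their level. Lists were made of gene symbols, and a merged window could enter through a single gene. In the immune list, for example, Ccr10 shared a window with Cntnap1 and Cd3eap with Ppp1r13l. Its value describes the list and not immune genes as a class. The astrocyte and oligodendrocyte lists, with 2 promoters each, were at -4.56 and -4.25 points. The remaining lists ran from -0.16 (solute carriers) to 5.92 (hormones). Lists of genes used in other tissues were among those with high shScr levels. Keratin and other epidermal genes (11 tested) averaged 62.5% and 75.3% in shScr against 53.5% and 50.4% in shTet3, with a median difference of -14.9 points and 10 of 11 with both shTet3 libraries below. Krt12, a corneal keratin, had 68.2% and 96.0%, then 44.5% and 58.2%. Krt5, a basal keratin of skin, had 64.5% and 77.8%, then 55.1% and 41.3%, and Krt73, a hair follicle keratin, had 64.4% and 78.7%, then 54.4% and 39.9%.

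Immune genes formed one of the larger lists (49 tested) and averaged 41.8% and 51.7% in shScr against 30.3% and 33.5% in shTet3. Their median difference was -14.3 points, 45 were lower, 31 (63.3%) had both shTet3 libraries below and 14 held 3 or more hypo-DMPs, of 314 such members in all. Il15 and Tnfsf4, given above, and Tnfrsf13b, a B cell receptor for survival factors, with 79.0% and 85.7%, then 53.0% and 45.4%, had the widest differences. Germline genes (16) averaged 48.6% and 58.4%, then 42.1% and 42.7%, with a median of -12.7 points and 7 with both below. Spata13 had the widest difference of the list, with 61.6% and 80.4%, then 47.3% and 39.9%, and all 4 of its CpGs were hypo-DMPs. Piwil2, which acts in piRNA silencing of transposons, had 64.7% and 82.6%, then 51.3% and 52.6%. Tnp1, a transition protein of sperm chromatin, had 77.7% and 88.7%, then 57.0% and 66.3%, and 4 of its 7 CpGs were hypo-DMPs.

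Muscle genes (14) averaged 53.7% and 64.8% in shScr against 47.5% and 47.0% in shTet3, with a median of -9.55 points and 7 with both below. Acta1, skeletal muscle actin, had 68.3% and 72.6%, then 50.8% and 45.6%, in oxBS and 71.0% and 84.3%, then 52.2% and 52.7%, in BS. The 7 CpGs marked in its sequence lie at positions -152 to -38 from the TSS, upstream of the TATAAA, and 2 of them were hypo-DMPs. Liver and plasma protein genes (9) had a median of -13.7 points and chemosensory receptors (8) -11.7 points, with all 8 of the latter lower and 4 with both below. Proteases (21) had a median of -8.63 points and hormones (4) -7.34 points.

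Genes of the nervous system were mixed. Neuronal genes (46) averaged 33.4% and 33.2% in shScr against 25.3% and 23.2% in shTet3, with a median of -7.71 points and 26 with both below. Kcnip2, a potassium channel partner, had 90.0% and 75.7%, then 50.6% and 52.7%, and Slc17a8, a vesicular glutamate transporter, had 59.5% and 72.1%, then 38.6% and 43.4%. Of the neural progenitor genes, 5 promoters of 4 genes were tested (Msi2, Notch1, Nr2e1 and both sparse Pax6 promoters), and 0 had both shTet3 libraries below. Nr2e1, a nuclear receptor of neural stem cells, had 67.4% and 34.1% in shScr against 37.7% and 40.1% in shTet3. Pax6 encodes the transcription factor that marks these cells. The upstream of its sparse promoters (chr2:105517548-105520524) had 65.2% and 38.3%, then 43.0% and 44.5%. The downstream one (chr2:105521620-105523204) had 64.8% and 35.6%, then 45.03% and 39.6%. At Nr2e1 and both of these Pax6 windows the shScr replicates were farther apart than the shRNA groups. Of the listed CpGs, 9 of 10 in the upstream Pax6 window and all 6 in the downstream one lay in annotated introns. These values are therefore of CpGs inside annotated transcripts, and Pax6 promoters outside the sparse class are not described. The astrocyte genes Gja1 and Aqp4 and the oligodendrocyte genes Mag and Sox10 each had both shTet3 libraries below, with Gja1, a gap junction protein, at 87.2% and 94.6%, then 75.2% and 77.8%. Fibroblast genes (5) had a median of -6.84 points and 3 with both below. Tagln, of the same list, went the other way by 5.49 points, with 42.3% and 26.3% in shScr against 32.8% and 46.9% in shTet3.

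Pluripotency genes (9) averaged 54.9% and 57.2% in shScr against 43.6% and 46.7% in shTet3, with a median of -8.27 points and 5 with both below. Dppa2, an early embryonic factor, had 66.5% and 76.7%, then 43.9% and 57.6%, and Zscan10, an ES cell transcription factor, had 67.5% and 72.0%, then 52.0% and 53.9%. Tcl1, an activator of AKT signalling in ES cells, had oxBS levels of 59.7% and 65.9%, then 50.2% and 45.2%, and BS levels of 58.4% and 79.8%, then 40.1% and 35.9%. Pou5f1, which encodes OCT4, had 42.3% and 44.5%, then 39.4% and 48.0%, in oxBS over 5 CpGs. In BS, over 9 CpGs, it had 54.8% and 42.5%, then 37.2% and 38.4%, a difference of -10.8 points with both shTet3 libraries below. Its merged window spanned 4849 bases and 7 TSSs. All 10 of its listed CpGs lay inside annotated transcripts, 6 of them in introns, so the level is not that of a single promoter. Zfp42, the ES cell marker REX1, had 29.7% and 57.5%, then 38.5% and 32.2%, and its groups overlapped.

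Of the methylation enzymes that the study discusses, Tet1 and Dnmt3a had a sparse promoter, and both were highly methylated in shScr. Tet1, which oxidises 5mC as Tet3 does, had oxBS levels of 76.5% and 93.6% in shScr against 60.2% and 67.5% in shTet3 at 3 CpGs in coding sequence, 349 to 425 bases after the TSS, of which 2 were hypo-DMPs. Its BS levels were 63.6% and 84.8%, then 38.3% and 64.2%, and they overlapped between the groups. Dnmt3a, a methyltransferase that sets new methylation, had 84.2% and 97.5%, then 78.9% and 81.6%, in oxBS and 93.2% and 92.7%, then 78.1% and 76.8%, in BS, with both shTet3 libraries below in both. Otx2, a forebrain transcription factor, had 21.1% and 17.8%, then 17.9% and 17.6%, in oxBS over 8 CpGs. In BS, over 5 CpGs, it had 26.6% and 17.7%, then 34.7% and 28.1%. The BS difference was 9.24 points, with both shTet3 libraries above, against -1.72 points in oxBS.

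The zinc finger list had the lowest shScr level of the lists and the smallest median difference. Zinc finger genes of the Zfp series (60) averaged 16.5% and 17.98% in shScr against 13.6% and 14.1% in shTet3, and 44 of them were below 20% in shScr. Their median difference was -0.23 points, with 18 (30%) having both shTet3 libraries below and 6 both above. Zfp454 was among the exceptions, with 66.3% and 57.7%, then 34.5% and 43.8%. Solute carriers (60) averaged 35.2% and 41.1%, then 29.5% and 29.6%, with a median of -6.40 points, near that of all sparse promoters, and 21 with both below. Slc4a4, a sodium bicarbonate cotransporter, had 65.0% and 78.2%, then 30.1% and 54.7%. Orphan receptors of the Gpr series (13) had a median of -5.17 points and 4 with both below.

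**Figure D5:**
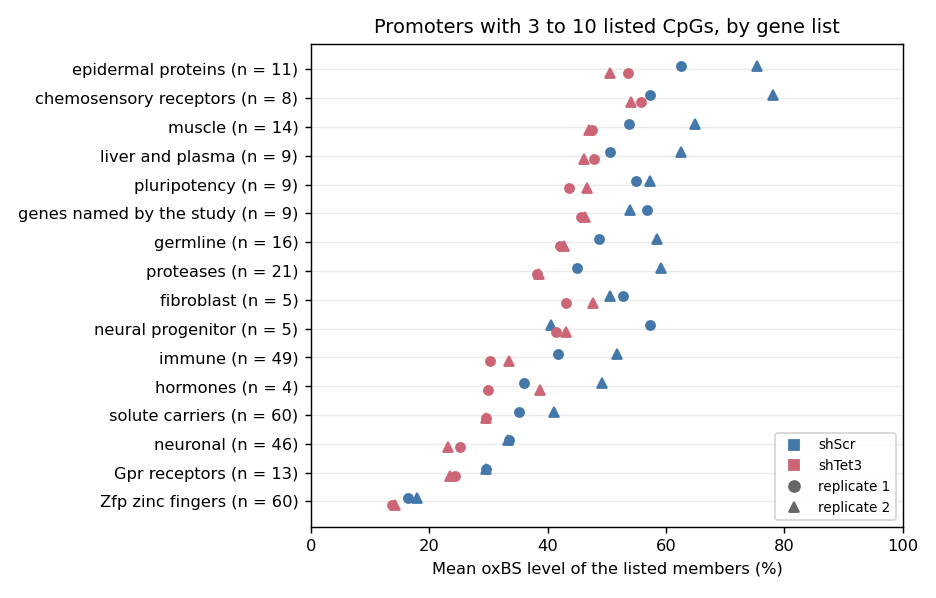
Mean oxBS level (%, horizontal) of the sparse promoters in each gene list with at least 4 tested members, ordered by shScr level; each point is 1 library, blue for shScr and red for shTet3, circles for replicate 1 and triangles for replicate 2. The epidermal list runs from 50.4% in a shTet3 library to 75.3% in a shScr library, the zinc finger list from 13.6% to 17.98%, and the neural progenitor list has its highest point in shScr replicate 1 (57.2%) with the other 3 libraries between 40.6% and 43.0%.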

How the data were processed

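Reduced representation oxidative bisulfite sequencing was deposited for 8 libraries, 2 BS and 2 oxBS for each shRNA, from 100 ng of DNA per sample. Per the submitters' processing notes, reads were trimmed with Trim Galore, aligned to mm9 with Bismark and tabulated with methylKit (versions not given in the sources used here). The deposited tables give for each CpG the coverage as a count of reads and the methylated and unmethylated shares as a percent, both computed by the authors, and list CpGs with at least 5 reads. They were used as deposited. MspI selection favours dense CCGG sites, which bears on which promoters are listed.

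Levels were unweighted means over CpGs covered by at least 10 reads in the libraries compared, for promoters with at least 3 such CpGs. Promoters were tested with limma 3.58.1 (R 4.3.3) with an intensity trend, fitted on all autosomal promoters, with Benjamini-Hochberg adjustment. CpGs were tested with a logistic regression, compared by likelihood ratio (python 3.11.15, numpy 2.4.6, scipy 1.17.1), as the study states q and difference thresholds for methylKit. Library means were compared by two-sided exact permutation tests. PCR reads are not independent molecules, so the per-CpG tests cover counting error only. The scripts were tested on simulated data with known changes. Sequence features and annotation came from the mm9 genome (NCBIM37) and GENCODE vM1. Repeats were not annotated, so listed CpGs in repeats were not set apart.

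The members, gene lists and comparisons were chosen with earlier results of these data known. Named promoters came from members measured in all 8 libraries. They were the 8 lowest and 8 highest by oxBS difference with both shTet3 libraries beyond both shScr libraries. The 4 nearest to no change among those at 70% or more in both shScr libraries were added, with the 4 with the largest BS minus oxBS. So were the genes the study names and some, not all, of the widest 3 in each gene list. BS and oxBS libraries of the same shRNA and number come from the same DNA and were paired for their difference. shScr and shTet3 libraries share only a replicate number. Nothing in the labels says that the replicates were separate cultures, so p-values measure the spread between these samples. Alternatives covered coverage, CpG number, weighting, merging, scale, trend, overdispersion, each replicate left out and a replicate block, and 4 more (a log2 ratio, a ratio within level groups and 2 subsets of members) were added after seeing the data.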

Additional observations from a re-analysis of the deposited data

How the results depend on the processing

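The mean 5mC difference and the difference from promoters with more than 10 listed CpGs kept their direction in every setting run. The limma counts at an unadjusted p below 0.05 did not, from 333 lower and 31 higher in oxBS and 343 and 20 in BS. In both, lower members still outnumbered higher ones with any 1 shScr replicate left out. With any 1 shTet3 replicate left out the reverse held. These fits leave 1 library in a group, so their spread comes from the other group alone. The logistic regression per promoter, which ignores the spread between replicates, was the only alternative to call members: 920 lower and 3 higher in oxBS and 923 lower and 4 higher in BS, against 0 with limma in every setting run. The smallest adjusted p for oxBS over the limma settings was 0.0754, without the intensity trend. Hypo-DMPs numbered 2139, 0 with the F test, and between 1001 (without shScr replicate 2) and 2739 (without shScr replicate 1) with a replicate left out. Without shTet3 replicate 1 there were 1330. Hyper-DMPs numbered 14, then 8 at a coverage of 20, 8 by Fisher's exact test, 0 with the F test and 10 to 91 with a replicate left out, the highest without shScr replicate 2, and 26 without shTet3 replicate 2. The mean BS minus oxBS in shScr was 0.506 points at a coverage of 5, against 0.641, which put it below shTet3 (0.562), as it was with 1 or more CpGs a promoter (0.566 against 0.571). With a replicate left out, the mean 5mC difference ran from -11.4 to -5.47 points, the difference from promoters with more than 10 listed CpGs from -9.85 to -4.69, and BS minus oxBS from 0.548 to 0.734 points in shScr and from 0.356 to 0.606 in shTet3.

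With the replicate number as a block, hypo-DMPs numbered 2231 and hyper-DMPs 12, limma called 0 members and the mean difference stayed -8.46 points. Deviations of same-numbered shScr and shTet3 libraries had r = -0.00338 in oxBS and 0.00364 in BS over promoters, so the numbers gave no pairing. Treating BS and oxBS as unpaired left 0 members with BS above oxBS. With 2 libraries a group, an exact test cannot go below p = 0.333, and depth leaves 383 members unmeasured.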

Other observations

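At most sparse promoters shScr replicate 1 was the lower control, but some went the other way. Of the 2304 members in all 8 libraries, 287 had shScr replicate 1 lower than replicate 2 by more than 15 points in both BS and oxBS, and 42 had it higher by as much. Between the shTet3 replicates 24 members were lower and 14 higher by this measure. The 42 had mean oxBS levels of 53.3% and 27.1% in shScr against 31.5% and 31.7% in shTet3, and at 33 of them the shTet3 mean lay between the shScr replicates. The widest gaps were at 2810055G20Rik, Ano1, Nr2e1, Fam132a, Slc2a4, Nfix and Ank2, and others were at both sparse Pax6 promoters, Ifitm2, Spata18 and Col14a1. Nfix, a nuclear factor I protein, had 56.7% and 20.5% in shScr against 29.7% and 16.3% in shTet3. Ank2, an ankyrin of axons and heart, had 59.7% and 18.5%, then 28.0% and 20.5%, and Slc2a4, the insulin-responsive glucose transporter, had 40.3% and 7.52%, then 13.1% and 21.1%. These promoters were picked after their values were seen and the replicates of a group have no order, so this is a description of 2 control DNA samples. What set those samples apart was not tested.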
